A study of Mus musculus with 9 samples.

Results

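Solute carriers are the membrane proteins that move sugars, amino acids, metals, vitamins, lipids and inorganic ions across the plasma membrane and the membranes of organelles. All gene symbols that start with Slc and a family number were taken, apart from Slc8a1, Slc30a1, Slc39a14, Slc40a1 and Slc11a1, and kept where they reached 3 CPM (counts scaled to the same sum in each library) in at least 3 of the 9 libraries. Of 353 such symbols among 34198 listed, 179 met this rule, in 41 families by number. The largest were family 25 with 34 members, family 35 with 17 and family 16 with 9. Of the members, 121 reached 3 CPM in all 9 libraries, and 0 met the rule only through the libraries of a single group. However, 14 reached 3 CPM in no depleted library and so entered through the other groups, where they are high. Of these, 11 were called lower after depletion on the deposited scale, among them Slc46a1, Slc22a3, Slc9a9 and Slc6a7, and the rule favours that direction for them. The members just inside were Slc6a7, Slc16a3 and Slc41a2, with a third-highest value of 3.14, 3.18 and 3.20 CPM. The symbols just outside were Slc22a4, Slc2a3 and Slc25a30, at 2.86, 2.91 and 2.92 CPM. Of the 179, 5 are not carriers by their names: the scaffold proteins Slc9a3r1 and Slc9a3r2, the neighbouring or adaptor genes Slc4a1ap and Slc7a6os, and the pseudogene Slc2a4rg-ps.

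The atrioventricular (AV) node, the relay that delays the impulse between atria and ventricles, was microdissected from C57BL/6J mice and its RNA was sequenced in bulk. There were 3 libraries of control mice (libraries 1 to 3), 3 of Cx3cr1 Cx43-/- mice (libraries 4 to 6) and 3 of macrophage-depleted Cd11bDTR mice (libraries 7 to 9). In the Cx3cr1 Cx43-/- mice the gap junction protein connexin 43 is removed from cells that use the Cx3cr1 gene, and in Cd11bDTR mice the Cd11b promoter, which is active in monocytes and neutrophils as well as in macrophages, drives the diphtheria toxin receptor. The toxin schedule, the age and sex of the mice, the genotype of the controls beyond their strain, and whether nodes were pooled are not given in the sources used here. The libraries of a group are called biological replicates in the design text. If they were not separate mice, the p-values below measure only the spread between these libraries.

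As background, facilitative carriers let a solute run down its gradient, whereas coupled carriers use the gradient of sodium or protons to move it uphill, and exchangers trade one solute for another. Working cardiomyocytes take up glucose, lactate, fatty acids and carnitine through solute carriers and pass adenosine triphosphate (ATP), phosphate and intermediates across the inner mitochondrial membrane through family 25. Macrophages use members of the same superfamily to handle iron, heme, folate and amino acids.

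Levels are CPM as the authors deposited them, and changes are differences of log2(CPM + 0.5), which understate the change of genes near the floor. The listed genes took 42.8% to 48.7% of the CPM total in control, 46.8% to 47.9% in Cx3cr1 Cx43-/- and 43.98%, 37.7% and 28.3% in depleted libraries 7, 8 and 9, so the scale itself moved with depletion. The median tested gene lay at -0.49 in depleted against control nodes on the deposited scale, at -0.18 once the columns were rescaled to a common total, and at -0.04 with median-of-ratios factors. Calls were therefore made on all 3 scales. A member is said to have risen or fallen only where its adjusted p was under 0.05 in the same direction on each of them. Log2 changes and adjusted p-values (limma) of single genes are those of the deposited scale unless another is named. From the steps of low values, 1 CPM stood for about 52.1 to 64.9 reads, so a member at 3 CPM rested on about 156 to 195 reads in a library.

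The cellular makeup moved with the groups too. Of 11 resident macrophage markers 10 were listed, and 9 of these 10 passed as lower in depleted nodes on the deposited scale. Their summed level was 248 to 393 CPM in control, 385 to 513 CPM in Cx3cr1 Cx43-/- and 57.0 to 66.8 CPM in depleted libraries. Monocyte and neutrophil markers summed to 4.6 to 9.19 CPM in control and 31.5 to 51.5 CPM in depleted libraries (3 of 5 tested markers higher). Of the depleted sums, Chi3l3 gave 28.7, 26.36 and 12.43 CPM. Besides Chi3l3 only S100a9 lay above all control libraries, at 1.43, 1.52 and 0.28 CPM in depleted libraries. Ly6c2, Ccr2, Plac8, S100a8 and Csf3r overlapped with control. Retnlg stayed under 1 CPM in all 9 libraries. AV node markers summed to 250 to 299 CPM in control against 56.9 to 92.0 CPM (5 of 7 lower, with Isl1 under 1 CPM in all libraries), and ventricular markers to 4466 to 7026 CPM against 2558 to 3589 CPM (4 of 5 lower). Markers of cardiomyocytes of any kind summed to 20502 to 23641 CPM in control and 10001 to 17883 CPM after depletion (1 of 5 lower), without overlap. Of these, Actc1 and Ryr2 overlapped between the groups, and Tnnt2, Tnni3 and Myh6 did not. Myh6 read 7338 to 10444 CPM in control and 2698 to 4592 CPM after depletion. Atrial markers summed to 3843 to 6645 CPM and 2833 to 6041 CPM (1 of 4 lower), with overlap. Endothelial markers ran from 300 to 479 CPM in control and from 160 to 277 CPM after depletion (3 of 6 lower). Of 5 Schwann cell markers 4 were lower, and 0 tested markers of fibroblasts, red cells or adipocytes were called. The adipocyte markers summed to 245 to 283 CPM in control and 267 to 736 CPM in depleted libraries. The part of these shifts in the carrier results was not tested, and in bulk tissue fewer cells of a type and less RNA per cell cannot be told apart.

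Macrophage-depleted nodes were first compared with control nodes. On the deposited scale 6 of the 179 solute carriers were called higher (3.35%, against 3.23% of all tested genes) and 75 lower (41.9%, against 33% of all tested genes). With a common total the counts were 15 higher and 48 lower, against 8.79% and 19.6% of all tested genes, and with median-of-ratios factors they were 19 and 33, against 13% in each direction. On all 3 scales 6 members rose (3.35%, against 3.2%) and 33 fell (18.4%, against 13%), and 0 were called in opposite directions on different scales. The tested genes as a whole include many at lower levels than the members, so the shares are set side by side without a test. Levels in the depleted libraries lay above all control libraries in 7 members and below all of them in 76, against 3.61% and 38% of all tested genes. The median change of the members was -0.57 on the deposited scale, -0.25 with a common total and -0.10 with median-of-ratios factors, each close to that of all genes. Without control library 1, 48 members were called lower on the deposited scale, and without depleted library 9, 57 were lower and 9 higher.

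**Figure D1:**
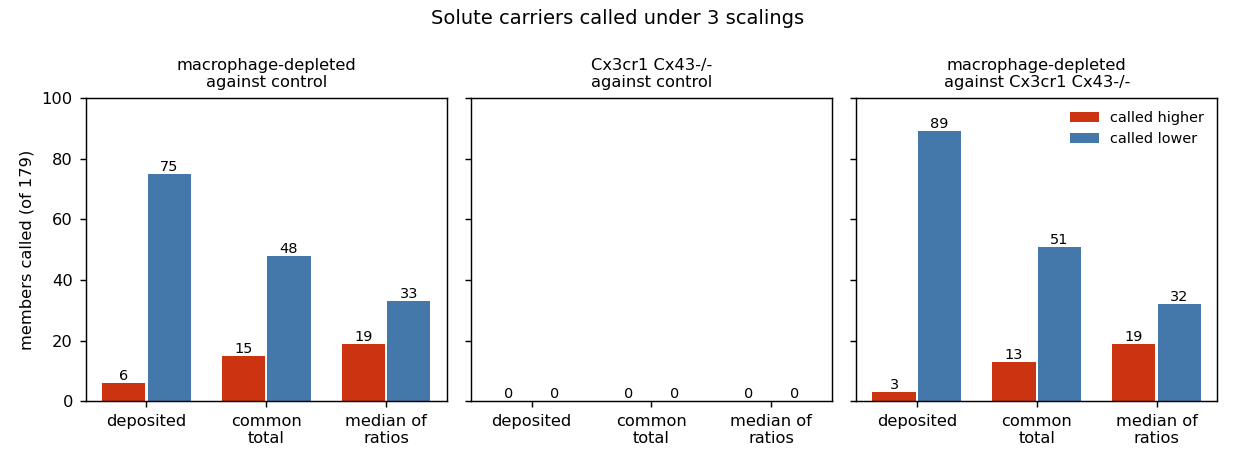
Bars give the number of the 179 solute carriers called higher or lower (adjusted p under 0.05, limma) in each of the 3 comparisons, on the deposited scale, with columns rescaled to a common total and with median-of-ratios factors. In depleted against control nodes the calls went from 6 higher and 75 lower to 19 higher and 33 lower across the scales, and in Cx3cr1 Cx43-/- against control nodes they were 0 on each.

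The members that rose were the steroid sulfate carrier Slc10a6, the neutral amino acid carrier Slc38a2, the mitochondrial ATP-magnesium/phosphate carrier Slc25a25, Slc45a3, the zinc carrier Slc39a6 and the fatty acid transport protein Slc27a3. The first 4 kept their call in all 17 runs, which were the deposited scale, the other settings tried and each control or depleted library left out. The region around the start sites of these 4 is shown because their calls were the ones kept in every run. The windows are RefSeq sequences of GRCm38.p6, another build than the mm9 named for the deposited data, written 5′ to 3′ on the gene's strand. Each holds 250 bases before the annotated start and 50 after it. Capitals mark a match, on either strand, to one of 5 short motifs searched. These were the cyclic AMP response element TGACGTCA, the STAT motif TTCNNNGAA, the glucocorticoid receptor half-site AGAACA, the E-box CACGTG and the TATA box TATAAA.
Slc10a6, chr5:103629354-103629653, minus strand: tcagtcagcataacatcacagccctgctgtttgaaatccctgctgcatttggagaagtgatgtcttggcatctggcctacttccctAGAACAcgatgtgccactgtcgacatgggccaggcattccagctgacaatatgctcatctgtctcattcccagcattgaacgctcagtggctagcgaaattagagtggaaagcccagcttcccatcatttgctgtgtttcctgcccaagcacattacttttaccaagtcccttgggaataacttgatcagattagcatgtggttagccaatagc
Slc38a2, chr15:96699679-96699978, minus strand: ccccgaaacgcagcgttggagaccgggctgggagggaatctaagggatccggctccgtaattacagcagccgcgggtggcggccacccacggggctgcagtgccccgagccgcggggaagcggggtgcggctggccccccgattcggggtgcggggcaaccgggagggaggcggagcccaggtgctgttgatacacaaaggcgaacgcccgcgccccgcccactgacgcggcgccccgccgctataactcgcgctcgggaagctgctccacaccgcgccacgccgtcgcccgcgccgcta
Slc25a25, chr2:32424017-32424316, minus strand: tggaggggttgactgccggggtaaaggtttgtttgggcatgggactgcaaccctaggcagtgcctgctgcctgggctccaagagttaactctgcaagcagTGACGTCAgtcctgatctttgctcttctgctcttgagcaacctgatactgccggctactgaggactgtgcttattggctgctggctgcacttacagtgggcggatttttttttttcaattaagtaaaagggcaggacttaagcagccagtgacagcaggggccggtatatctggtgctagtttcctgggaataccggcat
Slc45a3, chr1:131970359-131970658, plus strand: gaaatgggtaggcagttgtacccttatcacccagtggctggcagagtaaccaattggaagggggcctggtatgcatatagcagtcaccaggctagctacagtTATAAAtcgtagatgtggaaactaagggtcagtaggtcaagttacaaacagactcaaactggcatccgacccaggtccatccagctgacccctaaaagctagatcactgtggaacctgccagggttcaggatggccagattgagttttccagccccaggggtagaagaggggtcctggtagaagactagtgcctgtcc
The Slc10a6 window held AGAACA starting 164 bases before the start, and the Slc25a25 window held TGACGTCA starting 150 bases before it. RefSeq lists 3 start windows for Slc25a25 and 2 for Slc45a3, and those printed were chosen for their match. The other windows of both genes held none of the motifs, so the printed matches are not to be read against the shares that follow. The Slc45a3 window held TATAAA 148 bases before the start, and the Slc38a2 window, with 73.0% G and C, held none of the 5 motifs. Over all 32851 windows of this length, 1.79% held TGACGTCA, 8.30% TTCNNNGAA, 18.97% AGAACA, 7.15% CACGTG and 13.6% TATAAA. Counted by gene over any of its windows, TGACGTCA was in 2.03%, AGAACA in 21.3% and CACGTG in 8.09% of all genes, and in 2.22%, 14.8% and 17.8% of the 135 members with a window. Of the 33 members that fell 23 had a window, and TGACGTCA was in the windows of 0 of them, AGAACA in those of 3 and CACGTG in those of 5 (Slc12a7, Slc25a13, Slc29a1, Slc39a8 and Slc41a3). A match is a description of the letters and not a bound site.

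Slc10a6, which takes up sulfated steroids with sodium, stood at 3.25, 1.62 and 1.57 CPM in control, at 5.07, 4.84 and 1.53 CPM in Cx3cr1 Cx43-/- and at 28.44, 19.26 and 8.21 CPM in depleted libraries. All 3 depleted libraries lay above all 6 others. The mean rose from 2.15 ± 0.956 CPM to 18.6 ± 10.1 CPM (SD, n = 3), a log2 change of 2.75 (SE 0.41, adjusted p = 3.62e-05) on the deposited scale and 3.20 with median-of-ratios factors. It was the largest rise among the 179 members on the deposited scale.

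Slc38a2 (SNAT2), a sodium-coupled carrier of small neutral amino acids, was 114.5, 91.15 and 107.96 CPM in control libraries and 366.9, 238.98 and 179.81 CPM in depleted libraries. The Cx3cr1 Cx43-/- libraries held 110.78, 124.22 and 110.36 CPM, which is within or just above the control range, and no depleted library overlapped with either group. The mean rose 2.51-fold, from 105 ± 12.05 to 262 ± 95.6 CPM (SD, n = 3), with a log2 change of 1.26 (SE 0.23, adjusted p = 0.000261) on the deposited scale and 1.76 with median-of-ratios factors.

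Slc25a25, which exchanges ATP-magnesium for phosphate across the inner mitochondrial membrane under control of calcium, read 7.28, 6.19 and 5.29 CPM in control and 22.24, 13.29 and 12.04 CPM in depleted libraries, without overlap. Its log2 change was 1.24 on the deposited scale (SE 0.28, adjusted p = 0.00167) and 1.71 with median-of-ratios factors. Slc45a3 (prostein) went from 4.91 ± 1.52 CPM to 10.4 ± 0.850 CPM (SD, n = 3), a log2 change of 1.05 (SE 0.28, adjusted p = 0.00597). Slc39a6, a zinc importer of the ZIP family, rose from 7.57 ± 0.846 to 14.1 ± 2.35 CPM, by 0.84 (SE 0.25, adjusted p = 0.0112), a call lost without control library 3 (adjusted p = 0.0573). Slc27a3 held 3.71, 2.55 and 3.24 CPM in control and 4.88, 7.98 and 5.65 CPM in depleted libraries, a log2 change of 0.85 (SE 0.31, adjusted p = 0.0357). That call was lost without control library 1, 2 or 3 (adjusted p = 0.0570, 0.0858 and 0.0849) or depleted library 8 (adjusted p = 0.110), without the filter on low values (0.0764) and with only these 2 groups fitted (0.0883).

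**Figure D2:**
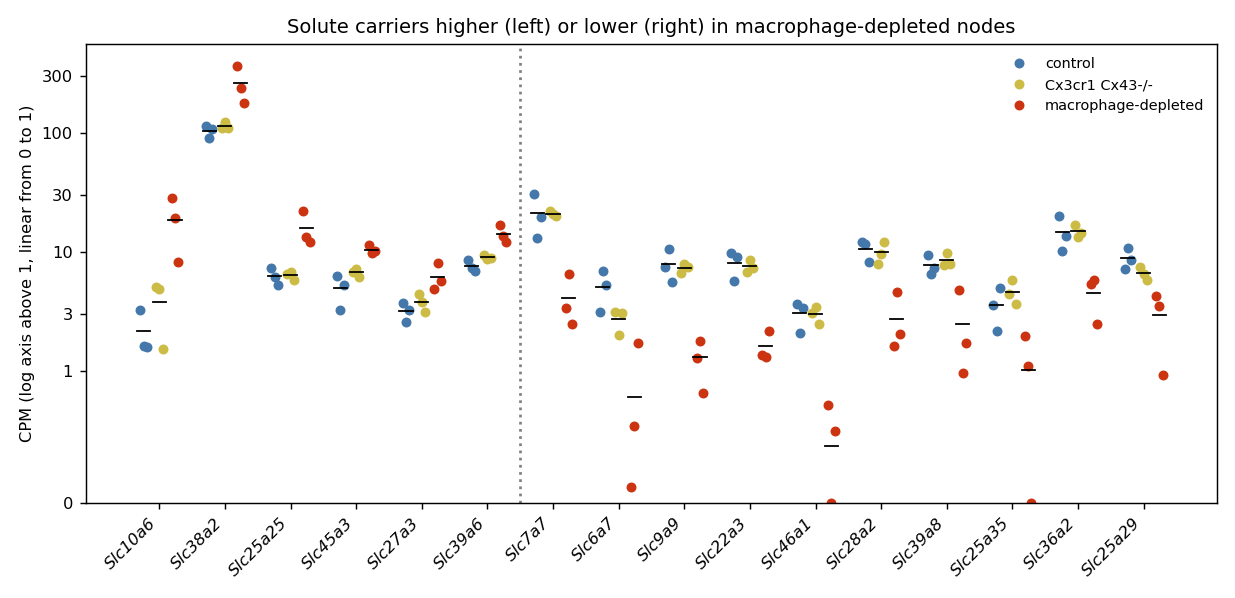
Each point is 1 library's level in CPM (log axis above 1, linear from 0 to 1) for the 6 solute carriers that rose (left of the dotted line) and the 10 with the largest fall (right of it), coloured by group, with a short black line at each group's mean. In Slc10a6 and Slc38a2 the depleted libraries sit above every other library, and in Slc7a7 and Slc22a3 they sit below every other library.

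Rescaling also moved the share of all tested genes called higher, from 3.23% on the deposited scale to 8.79% and 13%. Another 9 members were called higher with both rescalings and not on the deposited scale: Slc16a1, Slc1a4, Slc35b3, Slc39a1, Slc3a2, Slc43a3, Slc6a6, Slc7a6 and Slc9a3r2. Their estimated changes were positive on the deposited scale too, from 0.05 (Slc9a3r2) to 0.66 (Slc35b3). The 95% interval of Slc1a4 held only positive values there (0.04 to 1.22). Those of the others ran from negative to positive values, so their direction on that scale was not settled. The calls thus rest on the scale. Slc3a2, the heavy chain that carries several amino acid exchangers to the cell surface, read 45.69, 41.22 and 47.27 CPM in control and 88.2, 67.91 and 38.65 CPM in depleted libraries. Depleted library 9 alone lay below the control libraries. The log2 change was 0.46 (adjusted p = 0.138) on the deposited scale and 0.94 (adjusted p = 0.000433) with median-of-ratios factors.

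Sugar carriers were grouped by family number, so the pseudogene Slc2a4rg-ps is among them. Of 10 members, 3 fell on all 3 scales (against 13% of all tested genes) and 1 (Slc45a3, above) rose (against 3.2%). The median of the group was -0.64 on the deposited scale, against -0.49 for all genes. Slc2a4 (GLUT4), the insulin-responsive glucose carrier of muscle and fat, was 200.84, 142.28 and 172.38 CPM in control, 184.84, 188.66 and 180.26 CPM in Cx3cr1 Cx43-/- and 83.67, 57.15 and 51.37 CPM in depleted libraries. The highest depleted library lay well below the lowest of the other 6. The log2 change was -1.43 (SE 0.21, adjusted p = 3.24e-05) on the deposited scale and -0.95 with median-of-ratios factors. The intracellular glucose carrier Slc2a8 also fell, from 14.3 ± 3.24 to 5.27 ± 1.16 CPM (SD, n = 3; log2 change -1.35, adjusted p = 0.000457), as did Slc45a4 (-1.29, adjusted p = 0.000308). Slc2a1 (GLUT1), the basal glucose carrier of many cell types, was 23.09, 15.28 and 20.95 CPM in control and 32.36, 23.46 and 12.8 CPM in depleted libraries, and the groups overlapped. Its log2 change was 0.13 (95% interval -0.44 to 0.70) on the deposited scale and 0.61 (adjusted p = 0.0256) with median-of-ratios factors. Slc37a4, which brings glucose 6-phosphate into the endoplasmic reticulum, fell by 1.0 on the log2 scale (adjusted p = 0.00315). Among the 22 members with nucleotide sugar and related substrates it was the only 1 to fall on all 3 scales (against 13% of all tested genes).

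**Figure D3:**
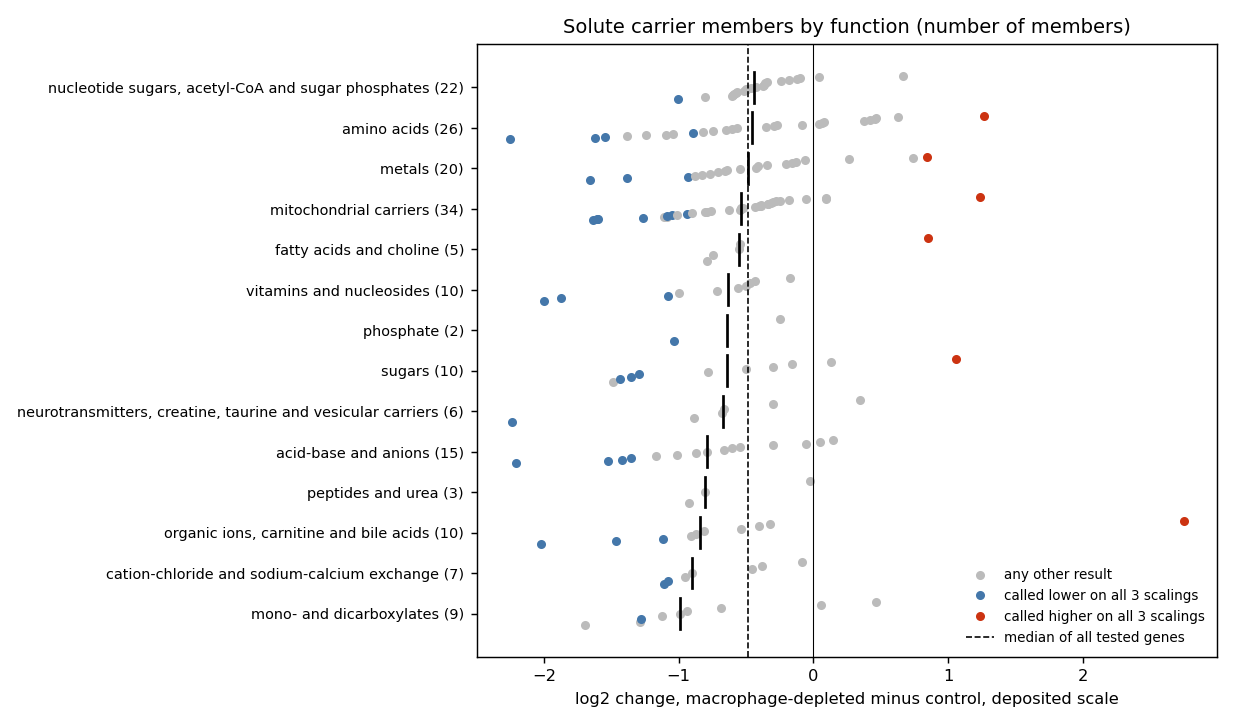
Each point is a solute carrier, placed by its log2 change in macrophage-depleted minus control nodes on the deposited scale and arranged by functional group, with the number of members in brackets. Red and blue mark members called higher or lower on all 3 scales, short black lines the group medians and the dashed line the median of all tested genes. The median of every group lies below 0, as does the median of all tested genes (-0.49), and Slc10a6 stands furthest to the right at 2.75.

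The members of the amino acid carrier families, Slc7a6os included, numbered 26. Of these, 1 (Slc38a2) rose and 4 fell on all 3 scales, against 3.2% and 13% of all tested genes. On the deposited scale 1 was higher and 10 were lower, against 3.23% and 33%, with a median of -0.46. Slc7a7 (y+LAT1), the light chain that pairs with Slc3a2 to export cationic amino acids, was 30.78, 13.03 and 19.78 CPM in control, 22.08, 20.74 and 20.06 CPM in Cx3cr1 Cx43-/- and 3.35, 6.48 and 2.48 CPM in depleted libraries. Every depleted library was below every other library, with a log2 change of -2.25 (SE 0.31, adjusted p = 1.28e-05), and -1.80 with median-of-ratios factors. It was the largest fall among the 179 members on the deposited scale. The glutamine carrier Slc38a3 (SNAT3) went from 31.9 ± 4.47 to 10.9 ± 3.59 CPM (SD, n = 3; -1.55, adjusted p = 6.92e-05) and the proton-coupled carrier of small amino acids Slc36a2 from 14.6 ± 4.92 to 4.5 ± 1.78 CPM (-1.62, adjusted p = 0.000348). Slc38a10 fell by 0.90 (adjusted p = 0.00547). Families 25, 27, 38, 39 and 45 each held a member called higher beside at least 1 called lower on the deposited scale. In family 38 the rise of Slc38a2 thus stood beside the falls of Slc38a3 and Slc38a10.

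The other members called lower on the deposited scale, and not on all 3, were Slc7a4, Slc7a8, Slc36a4, Slc38a1, Slc38a6 and Slc38a7. Several well-known amino acid carriers were not called on that scale. The leucine-preferring light chain Slc7a5 had a log2 change of 0.38 (95% interval -0.44 to 1.2), and the glutamine carrier Slc1a5 0.04 (-0.58 to 0.66). The arginine carrier Slc7a1 read 15.9 ± 1.95 CPM in control and 13.8 ± 8.26 CPM after depletion (SD, n = 3; log2 change -0.35, adjusted p = 0.356). The cystine carrier Slc7a11 stayed at or under 0.66 CPM in all 9 libraries and is no member. Slc7a8, another Slc3a2 partner, was called on the deposited scale (-1.38, adjusted p = 0.00512) and not with median-of-ratios factors (adjusted p = 0.0932), with a common total (0.0554) or without the filter on low values (0.0530). The carriers of creatine and taurine were called on some scales only: Slc6a8, for creatine, was -0.66 (adjusted p = 0.0114) on the deposited scale and -0.17 (0.321) with median-of-ratios factors, and Slc6a6, for taurine, 0.34 (0.286) and 0.83 (0.00447). Of the 6 members of families for neurotransmitters and related solutes, only the proline carrier Slc6a7 fell on all 3 scales (against 13% of all tested genes). It was at 3.14, 6.86 and 5.29 CPM in control, 3.09, 2 and 3.05 CPM in Cx3cr1 Cx43-/- and 0.12, 0.58 and 1.71 CPM in depleted libraries (-2.24, SE 0.42, adjusted p = 0.000402).

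Family 25, whose members sit mostly in the inner mitochondrial membrane, held the most abundant carriers. Per kilobase of exon the control level was highest for Slc25a4, the heart ADP/ATP carrier, at 1064 ± 57.2 CPM per kb (SD, n = 3), then for the phosphate carrier Slc25a3 at 187 ± 8.14 and the oxoglutarate carrier Slc25a11 at 115 ± 5.01. Slc2a4 came next at 49.4 ± 8.42 CPM per kb, followed by Slc41a3 at 41.6 ± 5.52 and the ADP/ATP carrier Slc25a5 at 40.9 ± 4.98. The SDs of the last 3 overlapped. Slc25a39, Slc16a1 and Slc35f5, at 26.8 ± 4.79, 26.2 ± 2.50 and 24.3 ± 2.66 CPM per kb, also lay within each other's spread.

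**Figure D4:**
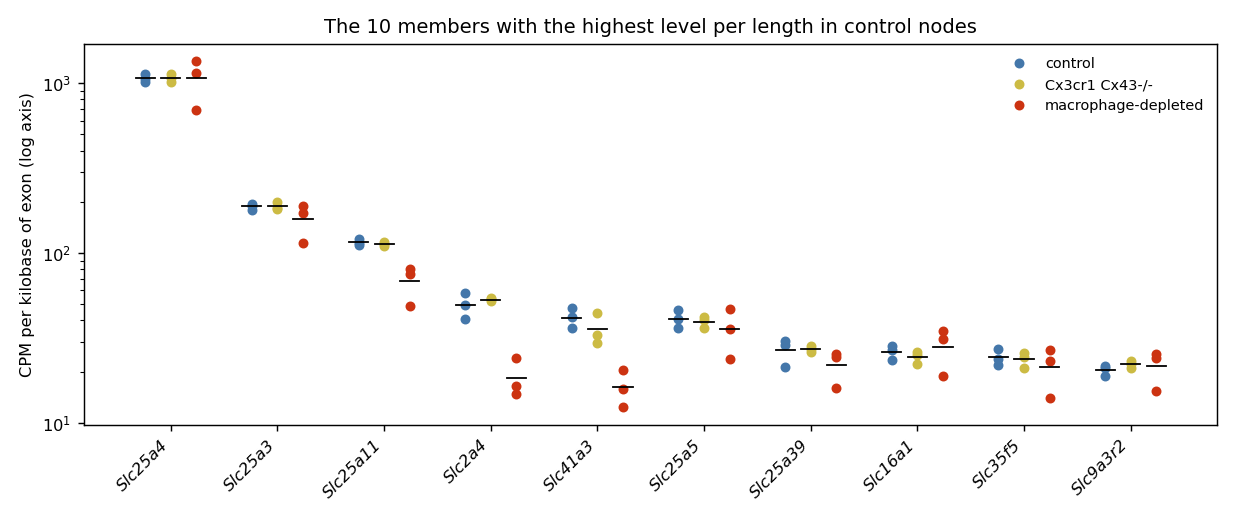
The 10 members with the highest level per length in control nodes, among them the scaffold gene Slc9a3r2, in CPM per kilobase of exon on a log axis. Points are libraries, coloured by group, with a black line at each group's mean. Slc25a4, at 1064 CPM per kb in control, stands above all others, and the depleted libraries of Slc2a4 and Slc41a3 lie below the other libraries of the same gene.

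The ADP/ATP carriers and the phosphate carrier were not called on the deposited scale. Slc25a4 was 2391, 2469 and 2653 CPM in control, 2650, 2393 and 2523 CPM in Cx3cr1 Cx43-/- and 3154, 2707 and 1638 CPM in depleted libraries. Library 7 was the highest and library 9 the lowest of all 9, and the log2 change was -0.05 (95% interval -0.64 to 0.53), or 0.44 with median-of-ratios factors (adjusted p = 0.0846). Slc25a3 (-0.28, 95% interval -0.78 to 0.22), Slc25a5 (-0.25, -0.72 to 0.21) and the carnitine-acylcarnitine carrier Slc25a20 (-0.39, -0.83 to 0.04) also missed the threshold.

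Of the 34 members of family 25, 14 were called lower on the deposited scale (against 33% of all tested genes), 11 with a common total (against 19.6%) and 7 on all 3 scales (against 13%), and 1 (Slc25a25) rose (against 3.2%). Slc25a42, which brings coenzyme A into mitochondria, was 45.21, 37 and 30.23 CPM in control, 32.56, 29.12 and 31.54 CPM in Cx3cr1 Cx43-/- and 15.13, 10.88 and 10.19 CPM in depleted libraries. No depleted library reached the level of any other, and the log2 change was -1.60 (SE 0.23, adjusted p = 1.82e-05), or -1.12 with median-of-ratios factors. The basic amino acid carrier Slc25a29 (-1.61, adjusted p = 0.00164), the S-adenosylmethionine carrier Slc25a26 (-1.27, 0.00208) and the aspartate-glutamate carrier Slc25a13 (-0.94, 0.00202) fell too. Slc25a23 carries ATP-magnesium and phosphate as Slc25a25 does, and it fell from 43.3 ± 10.9 to 20.5 ± 7.04 CPM (SD, n = 3; -1.08, adjusted p = 0.00202) while Slc25a25 rose. Slc25a35 was at 3.58, 2.14 and 4.95 CPM in control and 1.97, 1.09 and 0 CPM after depletion (-1.63, adjusted p = 0.00823), a call lost without depleted library 9 (adjusted p = 0.0615), without the filter (0.0943) and with quantile normalization (0.0663). Slc25a11 was -0.79 (adjusted p = 0.00626) on the deposited scale and missed the threshold with median-of-ratios factors (0.0871).

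**Figure D5:**
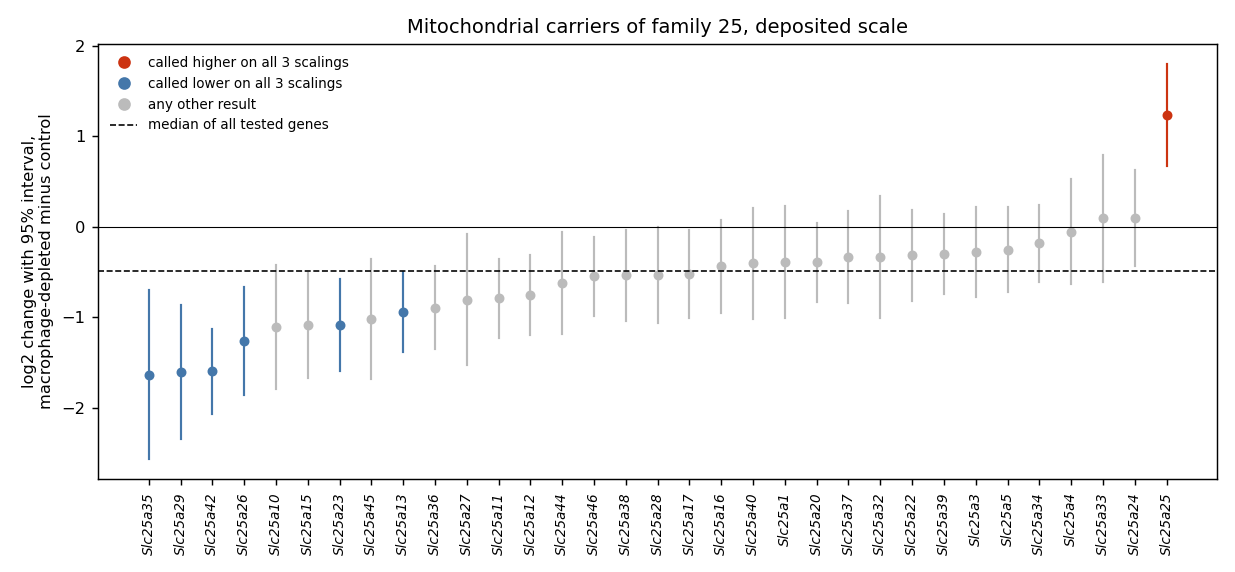
Log2 change with its 95% interval for the members of family 25 that are reported here (33 of 34), macrophage-depleted minus control, on the deposited scale, ordered by size. Red and blue mark members called higher or lower on all 3 scales, grey all others, and the dashed line the median of all tested genes. Slc25a25 alone lies above 0 with an interval that does not cross it (1.24), and Slc25a29 and Slc25a42 are at -1.61 and -1.60.

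Among 15 members of the acid-base and anion exchanger families, 9 were called lower on the deposited scale (against 33% of all tested genes) and 4 on all 3 scales (against 13%). Their median was -0.79, against -0.49 for all genes, and the 4 included the scaffold gene Slc9a3r1 (-1.53, adjusted p = 0.00160). Slc4a3 (AE3), the chloride-bicarbonate exchanger of heart and brain, was 154.41, 107.71 and 119.84 CPM in control, 117.56, 126.72 and 115.62 CPM in Cx3cr1 Cx43-/- and 77.38, 37.74 and 40.04 CPM in depleted libraries. The depleted libraries lay below all others, with a log2 change of -1.35 (SE 0.24, adjusted p = 0.000209). The endosomal sodium-proton exchanger Slc9a9 was 7.44, 10.45 and 5.6 CPM in control and 1.28, 1.78 and 0.83 CPM in depleted libraries (-2.21, SE 0.32, adjusted p = 2.19e-05), and the anion exchanger Slc26a6 fell by 1.42 (adjusted p = 0.00123).

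The sodium-bicarbonate cotransporter Slc4a4 was -1.17 (adjusted p = 0.00879) on the deposited scale, 0.0571 being its adjusted p with median-of-ratios factors, 0.0643 with quantile normalization, 0.0752 without the filter, 0.0740 without control library 1 and 0.0643 without depleted library 9. Among 7 cation-chloride and sodium-calcium exchangers, the potassium-chloride cotransporter Slc12a7 fell from 98.9 ± 6.97 to 46.8 ± 7.69 CPM (SD, n = 3; -1.08, adjusted p = 0.000369) and the potassium-dependent sodium-calcium exchanger Slc24a2 by 1.11 (adjusted p = 0.00168). Over all tested genes 13% fell on all 3 scales. The sodium-potassium-chloride cotransporter Slc12a2 was not called (-0.38, 95% interval -0.91 to 0.15).

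Metal and phosphate carriers held Slc39a6, which rose, and 4 members that fell on all 3 scales, against 3.2% and 13% of all tested genes. Among these carriers, families 39, 30 and 41 held 8, 5 and 3 members. Families 20 and 31 held 2 each, and families 11 and 48 held 1 each. Slc41a3, of the magnesium carrier family, was 136.8, 104.68 and 121.62 CPM in control, 95.69, 127.86 and 85.21 CPM in Cx3cr1 Cx43-/- and 59.07, 45.77 and 35.82 CPM in depleted libraries (-1.38, SE 0.22, adjusted p = 7.54e-05). Its depleted libraries were the lowest 3 of the 9. The zinc and manganese carrier Slc39a8 (-1.65, adjusted p = 0.00139), the heme carrier Slc48a1 (-0.93, adjusted p = 0.00134) and the sodium-phosphate cotransporter Slc20a2 (-1.03, adjusted p = 0.00132) fell as well. The second phosphate cotransporter, Slc20a1, was not called (-0.25, 95% interval -0.88 to 0.39). Slc41a1 was -0.83 (adjusted p = 0.0107) on the deposited scale, with an adjusted p of 0.123 with median-of-ratios factors, 0.0624 without the filter, and 0.0976 and 0.0508 without control library 1 or depleted library 8.

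Among the 9 members of the mono- and dicarboxylate families, 6 were called lower on the deposited scale (against 33% of all tested genes), with a median of -0.99 against -0.49 for all genes. On all 3 scales 1 fell (against 13%), the aromatic amino acid carrier Slc16a10 (-1.28, adjusted p = 0.00324). The lactate carrier Slc16a1 (MCT1) was 103.38, 124.63 and 119.28 CPM in control, 98.62, 110.87 and 115.6 CPM in Cx3cr1 Cx43-/- and 152.34, 136.75 and 83.43 CPM in depleted libraries. Libraries 7 and 8 lay above all others and library 9 below, and the log2 change was 0.06 (95% interval -0.39 to 0.51) on the deposited scale and 0.55 (adjusted p = 0.0118) with median-of-ratios factors. The lactate exporter Slc16a3 was not called (0.47, 95% interval -0.31 to 1.24).

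Of 5 members for fatty acids and choline, none fell on all 3 scales (against 13% of all tested genes) and Slc27a3 rose (against 3.2%). The fatty acid transport protein Slc27a1 was 106 ± 22.8 CPM in control and 61.3 ± 14.1 CPM after depletion (SD, n = 3; -0.79, adjusted p = 0.00766), and the call was lost with median-of-ratios factors (adjusted p = 0.104) and without control library 1 (0.0688). Slc22a5 (OCTN2), which takes up carnitine with sodium, went from 13.6 ± 2.35 to 6.03 ± 1.52 CPM and fell by 1.12 (adjusted p = 0.00245). In the same family of organic ion carriers Slc22a3 (OCT3), which clears monoamines, was 9.68, 5.65 and 9 CPM in control, 6.80, 8.53 and 7.34 CPM in Cx3cr1 Cx43-/- and 1.36, 1.30 and 2.16 CPM in depleted libraries (-2.02, SE 0.31, adjusted p = 4.10e-05). All 3 depleted libraries were below all others. Slc22a23 fell by 1.47 (adjusted p = 0.00165).

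Among the 10 carriers of vitamins and nucleosides, 3 fell on all 3 scales (against 13% of all tested genes). The proton-coupled folate carrier Slc46a1 was 3.65, 2.08 and 3.35 CPM in control, 3.03, 3.45 and 2.48 CPM in Cx3cr1 Cx43-/- and 0.74, 0 and 0.54 CPM in depleted libraries (-2.0, SE 0.40, adjusted p = 0.000704). The purine nucleoside carrier Slc28a2 was 12.19, 11.53 and 8.23 CPM in control and 1.60, 4.57 and 2.05 CPM in depleted libraries (-1.87, adjusted p = 0.000156), again without overlap. The equilibrative nucleoside carrier Slc29a1 (ENT1), which moves adenosine across the cell membrane, went from 64.4 ± 2.34 to 30.8 ± 6.78 CPM (SD, n = 3; -1.08, adjusted p = 0.000459). The lysosomal peptide carrier Slc15a3 was at 2.33 ± 0.929 CPM in control, 3.68 ± 0.392 in Cx3cr1 Cx43-/- and 1.15 ± 0.665 in depleted nodes. It was not called against control (-0.81, adjusted p = 0.103).

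Cx3cr1 Cx43-/- nodes were next compared with control nodes. Of the 179 members 0 were called in either direction (limma), against 0.0% higher and 0.00774% lower of all tested genes. On the deposited scale 0 members had a p under 0.05 before adjustment, against 1.29% higher and 0.186% lower of all tested genes. Changes ran from -0.76 (Slc6a7) to 0.75 (Slc41a2) with a median of 0.05, and 172 members lay within 0.5 of 0 on the log2 scale. The median member's 95% interval reached 0.56 to either side, and the interval of 152 members stayed within 1 of 0. Smaller differences could not be resolved in this model with 3 libraries a group. Its spread was estimated over all 9 libraries, the depleted ones included, so the median reach was 0.56 in each of the 3 comparisons. The smallest unadjusted p was 0.0841, for Slc6a7 (95% interval -1.63 to 0.11). Levels in the Cx3cr1 Cx43-/- libraries did not overlap with control in 5 members on the higher side and 7 on the lower side, against 5.94% and 3.0% of all tested genes.

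Macrophage-depleted nodes were last set against Cx3cr1 Cx43-/- nodes, a comparison that uses the same depleted libraries as the first. On the deposited scale 3 members were called higher, against 2.69% of all tested genes, and 89 lower, against 40.7%. With a common total the counts were 13 and 51, against 8.47% and 20.9%, and with median-of-ratios factors 19 and 32, against 13.1% and 12.9%. The libraries of both groups did not overlap in 7 members on the higher side and 105 on the lower side, against 3.39% and 50.6%. On all 3 scales 3 rose and 32 fell, against 2.68% and 12.9%. Those that rose were Slc10a6 (log2 change 2.12), Slc25a25 (1.21) and Slc38a2 (1.12), beside 2.75, 1.24 and 1.26 against control. Slc15a3 was -1.42 (adjusted p = 0.00594) against Cx3cr1 Cx43-/-, beside -0.81 against control, and that call was lost with median-of-ratios factors (adjusted p = 0.0604) and quantile normalization (0.105).

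Other transport and fuel genes were counted from lists in the same fit of depleted against control nodes. Of 37 tested ATP-binding cassette transporters, 22 were called lower on the deposited scale (against 33% of all tested genes) and 14 on all 3 (against 13%), among them Abcc9, the sulfonylurea receptor subunit of cardiac ATP-sensitive potassium channels, from 73.6 ± 4.91 to 38.2 ± 3.02 CPM (SD, n = 3; log2 change -0.94). Of 18 glycolytic genes, 12 were lower on the deposited scale (against 33%) and 8 with median-of-ratios factors (against 13%). The muscle phosphofructokinase Pfkm went from 592 ± 40.8 to 189 ± 61.5 CPM (-1.70, adjusted p = 1.16e-05), beside the fall of Slc2a4. Of 8 tested transporter partners, 1 was higher and 3 were lower on the deposited scale, against 3.23% and 33% of all tested genes. The 1 higher was Emb (embigin), a chaperone of the monocarboxylate carriers, which rose from 2.31 ± 1.18 to 7.30 ± 2.28 CPM (1.54, adjusted p = 0.00257). Among the lower was Bsg, whose call was lost with median-of-ratios factors (-0.20, adjusted p = 0.260). Of 8 glutathione and Nrf2 target genes, 1 was called higher on the deposited scale (Hmox1, 1.24, adjusted p = 0.00307), 3 with a common total and 4 with median-of-ratios factors, and 0 were lower on any of the 3. In a list of 10 genes of the Atf4 response, which answers amino acid shortage, 1 was higher and 1 lower on the deposited scale. With a common total 2 and 0 were, and with median-of-ratios factors 3 and 0. Beside both lists, the shares of all tested genes on these 3 scales were 3.23%, 8.79% and 13% higher and 33%, 19.6% and 13% lower. Atf4 itself was 57.47, 47.49 and 51.65 CPM in control and 132.49, 86.92 and 56.62 CPM in depleted libraries (0.73, adjusted p = 0.0209), so that depleted library 9 overlapped with control. The Atf4 call was lost without control library 2 or 3 (adjusted p = 0.0639 and 0.0632), without depleted library 7 or 8 (0.0830 and 0.0541) and without the filter on low values (0.0965). Trib3, the gene of that list called in the other direction, was lower on the deposited scale (-1.39, adjusted p = 0.0232) and missed the threshold with median-of-ratios factors (0.131) and without control library 2 or 3 (0.0594 and 0.0552) or depleted library 8 or 9 (0.144 and 0.0718).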

How the data were processed

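The authors deposited CPM rounded to 2 decimals for 9 libraries, and column names gave the samples. STAR 2.3.0, HTSeq 0.6.0, edgeR and mm9 are named without roles, per the submitters' processing notes, and no annotation is named in the sources used here. CPM steps gave the reads behind a value, but rounding left too few whole multiples to rebuild reads, so no count model was fitted. Symbols at 1 CPM or more in at least 3 libraries (12925) entered limma 3.58.1 (R 4.3.3) as log2(CPM + 0.5), in 1 model of all 9 libraries with a trended variance, two-sided tests and Benjamini-Hochberg adjustment over all of them. The fit was tested on simulated data with known changes added. It recovered 32.4% to 35.6% of changes of 1 on the log2 scale and 89.6% to 91.8% of changes of 2, by comparison. Of the calls, 3.93% to 5.48% were false. Exon lengths were GENCODE M21 unions, matched by symbol for 178 of 179 members.

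The members and lists were chosen with earlier results of these data known. Genes to name came from a fixed list of 40 symbols (38 members), up to 10 called members per comparison and direction by size of change (at 5 CPM or more in a group and without overlap), up to 3 per functional group by smallest p, the 10 highest levels per length, the threshold neighbours and opposite calls within a family. Others were chosen after their values were seen. Promoter windows were matched for 135 members. Alternatives were pseudocounts of 0.1 and 2, other filters, scalings and thresholds, fits of 2 groups, library weights, robust variances and each library left out. A few members that the rule names are not reported here.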

Additional observations from a re-analysis of the deposited data

How the results depend on the processing

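Scaling moved the counts most. Depleted against control, 6 members were called higher as deposited, 15 with a common total, 19 with median-of-ratios factors and 18 with quantile normalization, and 75, 48, 33 and 38 were lower. At an adjusted p under 0.01, 46 were lower, and with a change of at least 1 on the log2 scale 42. Leaving out a control or depleted library gave 4 to 9 higher and 48 to 96 lower. Depleted against Cx3cr1 Cx43-/-, 3 were higher as deposited, 13 with a common total, 19 with median-of-ratios factors, 18 with quantile normalization, 9 with library quality weights and 5 with all symbols tested, and 89, 51, 32 and 32 were lower on the 4 scales. At an adjusted p under 0.01, 56 were lower, and with a change of at least 1, 48. Leaving out a library gave 3 to 7 higher and 59 to 106 lower, the lowest without Cx3cr1 Cx43-/- library 5. The cause was not tested. Cx3cr1 Cx43-/- against control gave 0 calls of members under each alternative run. No paired analysis was possible because the replicate numbers in the labels run from 1 to 9 and are not shared between groups. Precision is limited by 3 libraries a group and by members near 3 CPM.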
